A study of Mus musculus with 6 samples.

Results

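Interferon-stimulated genes, the genes that cells switch on when an interferon binds its receptor, were followed in fibroblasts from Kdm5a-/- mouse embryos. KDM5A removes methyl groups from a lysine of histone H3. The set was a list of 43 genes. Of these, 40 had a probe set that the array annotation pairs with that gene alone, out of 18194 genes measured in this way. Each gene was represented by its brightest such probe set, avoiding those with names ending in _x_at where another exists. Probe sets ending in _s_at were not avoided, and they represent Ifi35 and Ly6e. Isg15, Ifi44 and Oas1g had no single-gene probe set and were not analysed here, and Tmem173 is given under its current symbol, Sting1.

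All 3 groups were immortalized fibroblasts with both Kdm5a alleles lost, on a mixed strain background. They carried an empty vector, re-introduced wild-type KDM5A, or re-introduced KDM5A-H483A, a form with 1 residue replaced, and each group had 2 Affymetrix M430 2.0 arrays, called biological replicates 1 and 2 in the labels. Total RNA came from cultures that had not reached confluence, in DMEM with serum at 10%, and the labels name no interferon or virus. The labels do not say how the replicate cultures were separated, which promoter drove KDM5A or whether a line was a single clone. The p-values therefore reflect only how far these arrays lie apart, which may be technical. Values are log2 levels made with RMA, a method that subtracts background, equalises the arrays and summarises the probes of a probe set, so a difference of 1 is a 2-fold difference.

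Type I interferons signal through the receptor chains IFNAR1 and IFNAR2 and the kinases JAK1 and TYK2 to STAT2. It joins IRF9 in a complex that binds a DNA element, the interferon-stimulated response element, in front of the genes it activates. The products block viral RNA and its translation, sense foreign nucleic acid, or limit the response itself, and fibroblasts can both make type I interferon and respond to it.

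Over all genes, Pearson's r between arrays lay between 0.978 and 0.995, and at most 36 values were identical in any pair. Kdm5a itself read 5.89 and 5.83 in the empty vector arrays, 5.96 and 5.83 in those with wild-type KDM5A, and 6.11 and 5.89 in those with KDM5A-H483A. Nothing in the labels places its probes inside or outside the deleted part, so they check neither the deletion nor the re-introduction. The matrix gene Fn1, that of fibronectin, stood between 12.5 and 12.8 and the mesenchymal filament gene Vim between 12.8 and 13.4. The leukocyte gene Ptprc lay between 2.76 and 3.18 and the epithelial gene Cdh1 between 2.67 and 2.87, close to the lowest value in the table, 2.12. Other markers did not divide in this way. The leukocyte gene Laptm5 reached 6.68 and the epithelial gene Krt5 reached 6.22, while the fibroblast gene Lum fell to 3.80.

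The interferon-stimulated genes differed far more between the 2 arrays of each KDM5A group than between groups. In the first wild-type KDM5A array, 32 of the 40 genes stood above both empty vector arrays, against 37.6% of all genes. In the second wild-type KDM5A array, 27 of the 40 stood below both empty vector arrays, against 37.8% of all genes. With KDM5A-H483A, 29 of the 40 were above both in the first array (32.6% of all genes) and 26 of the 40 were below both in the second (38.2% of all genes). The median gene was 0.65 above the empty vector mean in the first wild-type KDM5A array and 0.14 below it in the second (-0.14). For KDM5A-H483A these medians were 0.32 and -0.18. Over all genes the same 4 medians lay between -0.01 and 0.01. A total of 16 genes were above both empty vector arrays in both first KDM5A arrays and below both in both second arrays, a pattern held by 4.51% of all genes. In bulk RNA, fewer responding cells and less RNA per cell cannot be told apart.

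**Figure D1:**
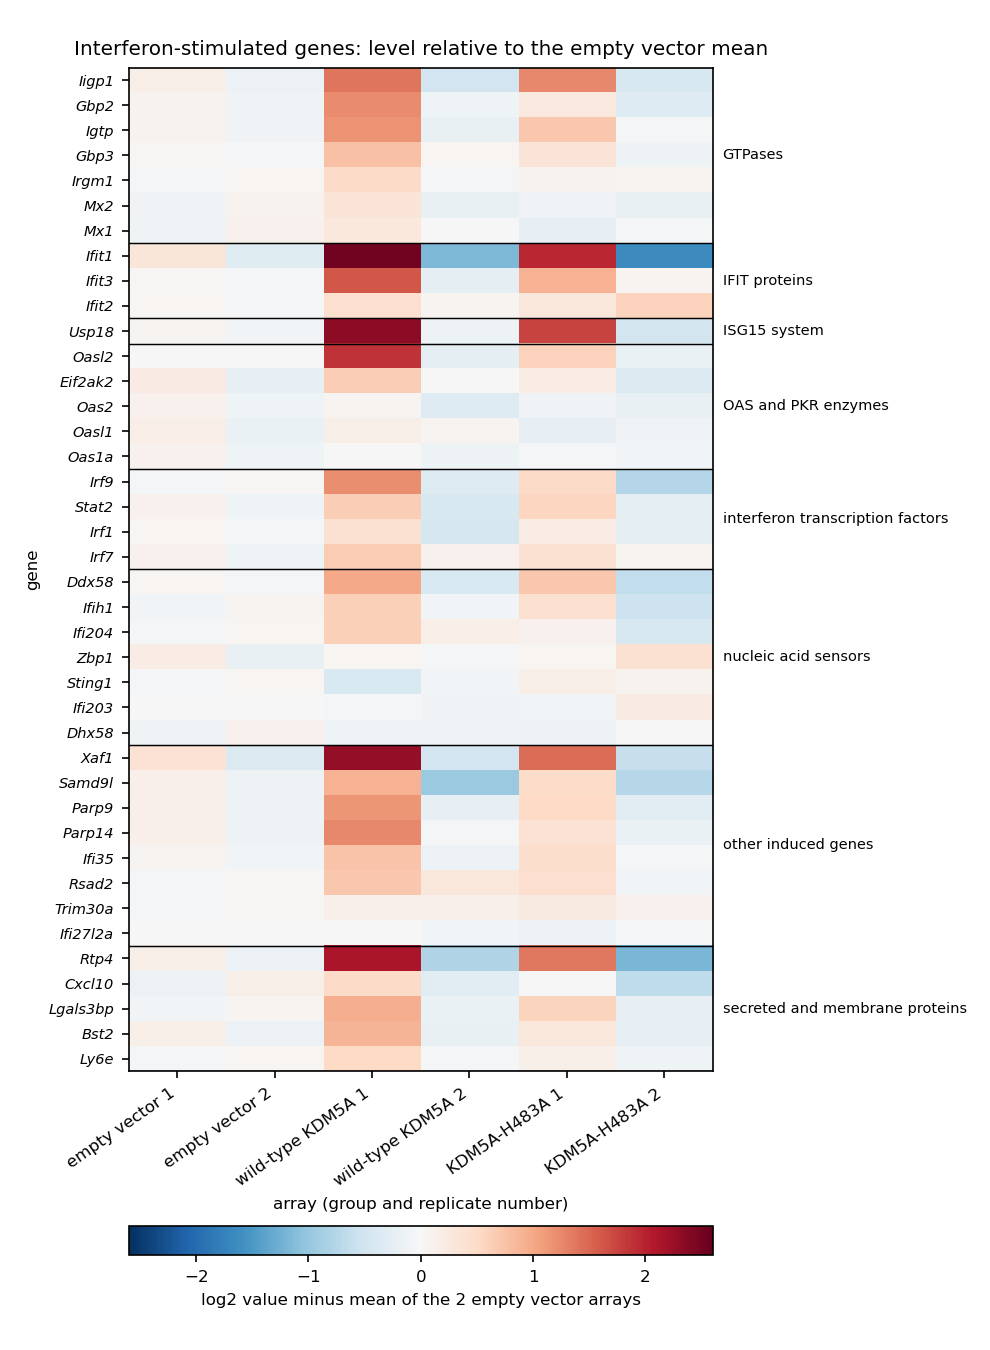
Level of each of the 40 genes (rows, grouped by role) in each of the 6 arrays (columns), as the log2 value minus the mean of the 2 empty vector arrays. Red is higher and blue is lower. The columns of the first wild-type KDM5A and first KDM5A-H483A arrays are mostly red, with medians of 0.65 and 0.32, and those of the second arrays are mostly pale blue, with medians of -0.14 and -0.18.

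Ifit1, Rtp4, Xaf1 and Usp18 spanned the most over the 6 arrays. Ifit1, which encodes an antiviral RNA-binding protein, read 7.23 and 6.59 in the empty vector arrays, 9.41 and 5.73 in the wild-type KDM5A arrays, and 8.87 and 5.26 in the KDM5A-H483A arrays. The groups keep this order in the sentences that follow. Its first array was therefore 12.8-fold above the second with wild-type KDM5A and 12.3-fold above it with KDM5A-H483A, while the empty vector arrays lay 1.56-fold apart and between these extremes. Ifit3, from the same family, read 5.71 and 5.65, then 7.28 and 5.41, then 6.58 and 5.74. Its first KDM5A arrays stood well above the controls, while the second KDM5A-H483A array lay just above them and the second wild-type KDM5A array below. Ifit2, the third of the family, did not share the pattern, with 5.72 and 5.62, 6.10 and 5.74, and 5.97 and 6.27.

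Usp18, which strips the modifier ISG15 from proteins and dampens signalling at the interferon receptor, stood at 4.51 and 4.38, 6.78 and 4.31, and 6.21 and 3.98. The first KDM5A arrays were high, and the second lay under both empty vector arrays. Xaf1, a gene linked to apoptosis, stood at 5.70 and 4.95, 7.62 and 4.83, and 6.77 and 4.73. The receptor chaperone gene Rtp4 stood at 7.29 and 6.97, 9.26 and 6.35, and 8.50 and 5.95. Its second KDM5A arrays were clearly below the empty vector arrays, as they were for Samd9l, an antiviral factor, at 7.44 and 7.16, 8.20 and 6.34, and 7.77 and 6.56.

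Of the 4 transcription factors, Irf9 had the widest spread. This DNA-binding partner of STAT2 read 6.71 and 6.77, then 7.95 and 6.41, then 7.23 and 5.97, so both KDM5A groups straddled the control values. Stat2, which carries the signal from the receptor to the nucleus, stood at 4.63 and 4.43, 5.17 and 4.10, and 5.09 and 4.30. Irf1, an early activator of the response, stood at 7.98 and 7.89, 8.33 and 7.50, and 8.12 and 7.68. These 3 genes were high in the first and low in the second array of both KDM5A groups. Irf7, an amplifier of type I interferon production, spanned less, at 3.60 and 3.36, 4.13 and 3.59, and 3.87 and 3.55, and its second KDM5A arrays were not below both controls.

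The nucleic acid sensors were divided. Ddx58, the gene of the viral RNA sensor RIG-I, stood at 7.44 and 7.32, 8.37 and 6.98, and 8.08 and 6.74, and the related sensor gene Ifih1 had differences between first and second array of 0.69 with wild-type KDM5A and 0.96 with KDM5A-H483A. Ifi204, from the DNA-sensing Ifi200 family, differed by 0.44 and 0.53. The other 4 sensors, Dhx58, Ifi203, Zbp1 and Sting1, differed by -0.32 to 0.08 with wild-type KDM5A and by -0.35 to 0.06 with KDM5A-H483A. The median over the 7 sensors was therefore only 0.08 and 0.06. Dimmer probe sets gave other values, 0.50 and 0.30 or 0.04 and 0.15 for Dhx58. For Zbp1 such a probe set gave 0.17 and 0.34, and for Sting1 0.30 and -0.61.

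Among the enzymes that act on viral RNA or translation, Oasl2 stood at 3.18 and 3.17, 5.05 and 2.91, and 3.77 and 3.01. Its first wild-type KDM5A array was well above the first KDM5A-H483A array. Eif2ak2, the gene of the translation-blocking kinase PKR, had differences of 0.62 and 0.57. The oligoadenylate synthetase genes Oas1a and Oas2 and the related Oasl1 spanned at most 0.46 over all 6 arrays.

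The interferon-induced GTPases, which guard the cytosol and pathogen vacuoles, had median differences between first and second array of 0.73 with wild-type KDM5A and 0.46 with KDM5A-H483A. Iigp1 stood at 4.39 and 4.08, 5.62 and 3.74, and 5.48 and 3.82, with both first arrays high and both second arrays low. The guanylate-binding protein gene Gbp2 stood at 4.77 and 4.57, 5.91 and 4.56, and 4.93 and 4.34, so that the first wild-type KDM5A array stood far above the rest. Igtp had differences of 1.37 with wild-type KDM5A and 0.75 for the H483A form, Gbp3 of 0.73 and 0.46, and Irgm1 of 0.52 and 0.019. Mx1 and Mx2, dynamin-like antiviral GTPases, spanned 0.49 and 0.52 over the 6 arrays.

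The secreted and membrane proteins had median differences of 1.08 and 0.68. They include Lgals3bp, a galectin-binding glycoprotein, the virion tether Bst2 and the chemokine Cxcl10, with 1.11, 1.08 and 0.80 for wild-type KDM5A and 0.79, 0.51 and 0.68 for KDM5A-H483A. The PARP family gene Parp9 stood at 6.70 and 6.44, 7.71 and 6.35, and 7.08 and 6.27. Its relative Parp14 had differences of 1.27 and 0.54. Ly6e, a membrane protein gene, had 0.57 and 0.26, and the interferon-induced gene Ifi35 had 0.91 and 0.50. Trim30a and Ifi27l2a spanned only 0.25 and 0.16 over the 6 arrays.

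With wild-type KDM5A, the first array exceeded the second by at least 1 log2 unit for 17 of the 40 genes, against 1.47% of all genes, and 0 were as much lower (0.379% of all genes). With KDM5A-H483A there were 8 such genes, against 1.46% of all genes, and again 0 as much lower (0.934%). All 8 were also among the 17. Such overlap was common over all genes, with 147 in both groups, of 268 with wild-type KDM5A and 266 with KDM5A-H483A. With empty vector, 0 of the 40 were this far apart in either direction (0.115% and 0.033% of all genes). The first array was the higher one, by any amount, for 38 of the 40 genes with wild-type KDM5A (52.5% of all genes), 33 with KDM5A-H483A (50.2%) and 26 with empty vector (50.3%). The median difference between first and second array was 0.77 for wild-type KDM5A, 0.52 for KDM5A-H483A and 0.11 for empty vector, against 0.02, 0.00 and 0.00 over all genes. The difference was larger with wild-type KDM5A than with KDM5A-H483A in 35 of the 40 genes (53.0% of all genes). The first wild-type KDM5A array stood above the first KDM5A-H483A array in 37 of the 40 (54.7% of all genes), by a median of 0.39. The second arrays of these groups were closer, with 22 of the 40 higher for wild-type KDM5A (48.9% of all genes) and a median of 0.04. One pair of arrays per group allows no test of these differences within a group.

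**Figure D2:**
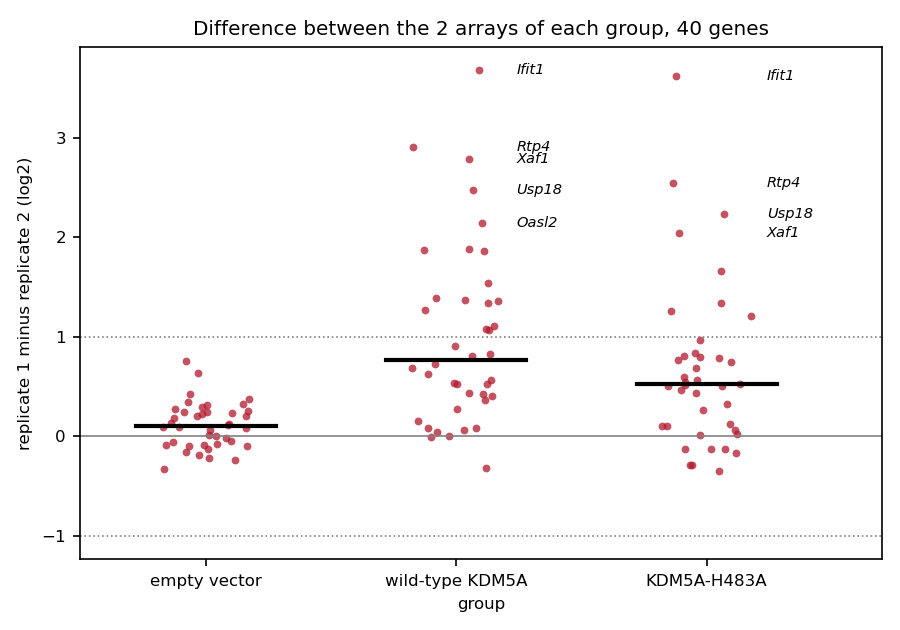
Difference between replicate 1 and replicate 2 on the log2 scale (vertical axis) for each of the 40 genes (points) in each group (horizontal axis). Black bars are medians, at 0.11, 0.77 and 0.52, and dotted lines mark a difference of 1 in either direction. The 5 named genes above 2 with wild-type KDM5A include Ifit1 at 3.68, and the empty vector points all lie below 1.

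Both KDM5A groups can be joined by asking whether replicate 1 differed from replicate 2 over their 4 arrays, with the group as a term. This comparison was chosen after the values were known. Limma called 22 of the 40 genes, all higher in replicate 1, where it called 5.27% of all genes, 3.34% higher and 1.93% lower in replicate 1. Ifit1 had a log2 difference of 3.65 (SE 0.15, limma adjusted p = 7.2e-07), Rtp4 of 2.73 (SE 0.16, limma adjusted p = 5.9e-06) and Usp18 of 2.35 (SE 0.16, limma adjusted p = 1.1e-05). The called genes spanned the transcription factors (3 of 4), the GTPases (3 of 7), the sensors (2 of 7) and the secreted and membrane proteins (4 of 5). The weakest call was Irf1, at 0.63 (SE 0.16, limma adjusted p = 0.0499). The fit has 1 residual degree of freedom and rests largely on the spread estimated from all genes. The labels do not say what arrays of the same replicate number share. The p-values of this fit therefore show only how alike the differences of the 2 KDM5A groups were for their size. With the empty vector arrays included, limma called 0 of the 40 and 0.0% of all genes, with 22 of the 40 at an unadjusted p under 0.05 (11.7% of all genes).

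Between groups, these differences count as error, and no interferon-stimulated gene passed the threshold of 0.05 after adjustment over all genes. For wild-type KDM5A against empty vector, limma called 0 of the 40 (0.0% of all genes), and 0 had an unadjusted p under 0.05 (2.52% of all genes). The log2 fold change was above 0 in 32 of the 40 (51.3% of all genes), with a median of 0.30 against 0.00 over all genes. Leaving out the first wild-type KDM5A array turned this median to -0.14, and leaving out the second raised it to 0.65. The distance from a fold change to either bound of its 95% confidence interval had a median of 0.72 for these genes and 0.37 for all genes, and reached 3.51 for Ifit1.

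The smallest p above 0 in that comparison belonged to Rsad2, the gene of the antiviral enzyme viperin. It stood at 6.31 and 5.90 against 5.57 and 5.65, with a log2 fold change of 0.49. Its SE was 0.22 and its 95% CI ran from -0.028 to 1.01 (limma adjusted p = 1), with both arrays above both controls. A dimmer Rsad2 probe set went the other way, at 3.20 and 3.24 against 3.41 and 3.38 (-0.18), and another went the same way (0.71). Ifi204 followed, at 4.27 and 3.83 against 3.61 and 3.69 (log2 fold change 0.40), and then Irf7 (0.39), whose arrays overlapped with the controls at 3.59 and 3.60. On the lower side stood Sting1, the adaptor of cytosolic DNA sensing, at 6.81 and 7.14 against 7.16 and 7.26 (log2 fold change -0.24, 95% CI -0.59 to 0.12). Dhx58, a regulator of RIG-I signalling, stood at 4.67 in both arrays against 4.68 and 4.89 (-0.12), and Oas2 at 6.10 and 5.67 against 6.13 and 5.90 (-0.13). Both arrays were above both controls in 5 of the 40 genes (16.5% of all genes), Rsad2, Ifi204, Ifit2, Trim30a and Gbp3. They were below both in 4 (15.4%), Sting1, Dhx58, Ifi203 and Ifi27l2a.

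For KDM5A-H483A against empty vector, limma called 0 of the 40 (0.0% of all genes), and 1 had an unadjusted p under 0.05 (1.65% of all genes). This was Ifit2, at 5.97 and 6.27 against 5.72 and 5.62, which gave a log2 fold change of 0.45. Its SE was 0.17 and its 95% CI ran from 0.029 to 0.87 (limma adjusted p = 0.999). Trim30a, a regulator of inflammatory signalling, stood at 5.30 and 5.18 against 5.05 and 5.10, and the Z-form nucleic acid sensor gene Zbp1 at 4.13 and 4.48 against 4.26 and 3.89. Trim30a was separated from the controls by less than 0.1 and Zbp1 overlapped with them. On the lower side, Cxcl10 stood at 5.36 and 4.67 against 5.18 and 5.50 (log2 fold change -0.32, 95% CI -1.12 to 0.47), Oasl1 at 5.39 and 5.52 against 5.77 and 5.43 (-0.15), and Mx1 at 3.18 and 3.34 against 3.28 and 3.52 (-0.14). All 3 overlapped with the controls. The log2 fold change was above 0 in 25 of the 40 (50.2% of all genes), with a median of 0.08. This median became -0.18 without the first KDM5A-H483A array and 0.32 without the second, and 0.12 and 0.026 without the first and the second empty vector array. Both arrays were above both controls in 5 genes (13.6% of all genes), Ifit2, Ifit3, Irgm1, Sting1 and Trim30a, and below both in 1 (14.6%), Ifi27l2a.

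For KDM5A-H483A against wild-type KDM5A, limma called 0 of the 40 (0.0% of all genes), with 2 at an unadjusted p under 0.05 (3.81% of all genes). Ifi204 stood at 3.76 and 3.23 against 4.27 and 3.83, which gave a log2 fold change of -0.55. Its SE was 0.22 and its 95% CI ran from -1.09 to -0.015 (limma adjusted p = 0.928). Sting1 stood at 7.37 and 7.31 against 6.81 and 7.14, which gave a log2 fold change of 0.36. Its SE was 0.15 and its 95% CI ran from 0.0068 to 0.72 (limma adjusted p = 0.928). In both genes the arrays of the 2 groups did not overlap. They did overlap in the second Sting1 probe set, at 5.06 and 5.66 against 5.35 and 5.04. For KDM5A-H483A against empty vector, that probe set had a log2 fold change of -0.12, where the brightest one had 0.13. Mx1 (-0.28) and Oasl1 (-0.25) followed on the lower side, and Zbp1 (0.23) and Ifit2 (0.20) on the higher side. The log2 fold change was above 0 in 8 of the 40 (48.4% of all genes), with a median of -0.21 against -0.01 over all genes. Leaving out the first and the second wild-type KDM5A array gave 0.20 and -0.68, while without KDM5A-H483A replicate 1 it was -0.55 and without replicate 2 it was 0.045. The groups did not overlap for Sting1 and Zbp1 on the higher side, 2 genes (14.9% of all genes), and for Ifi204, Mx1 and Oasl1 on the lower side, 3 genes (16.1%). The comparisons against empty vector share their control arrays, and this comparison shares its arrays with both.

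**Figure D3:**
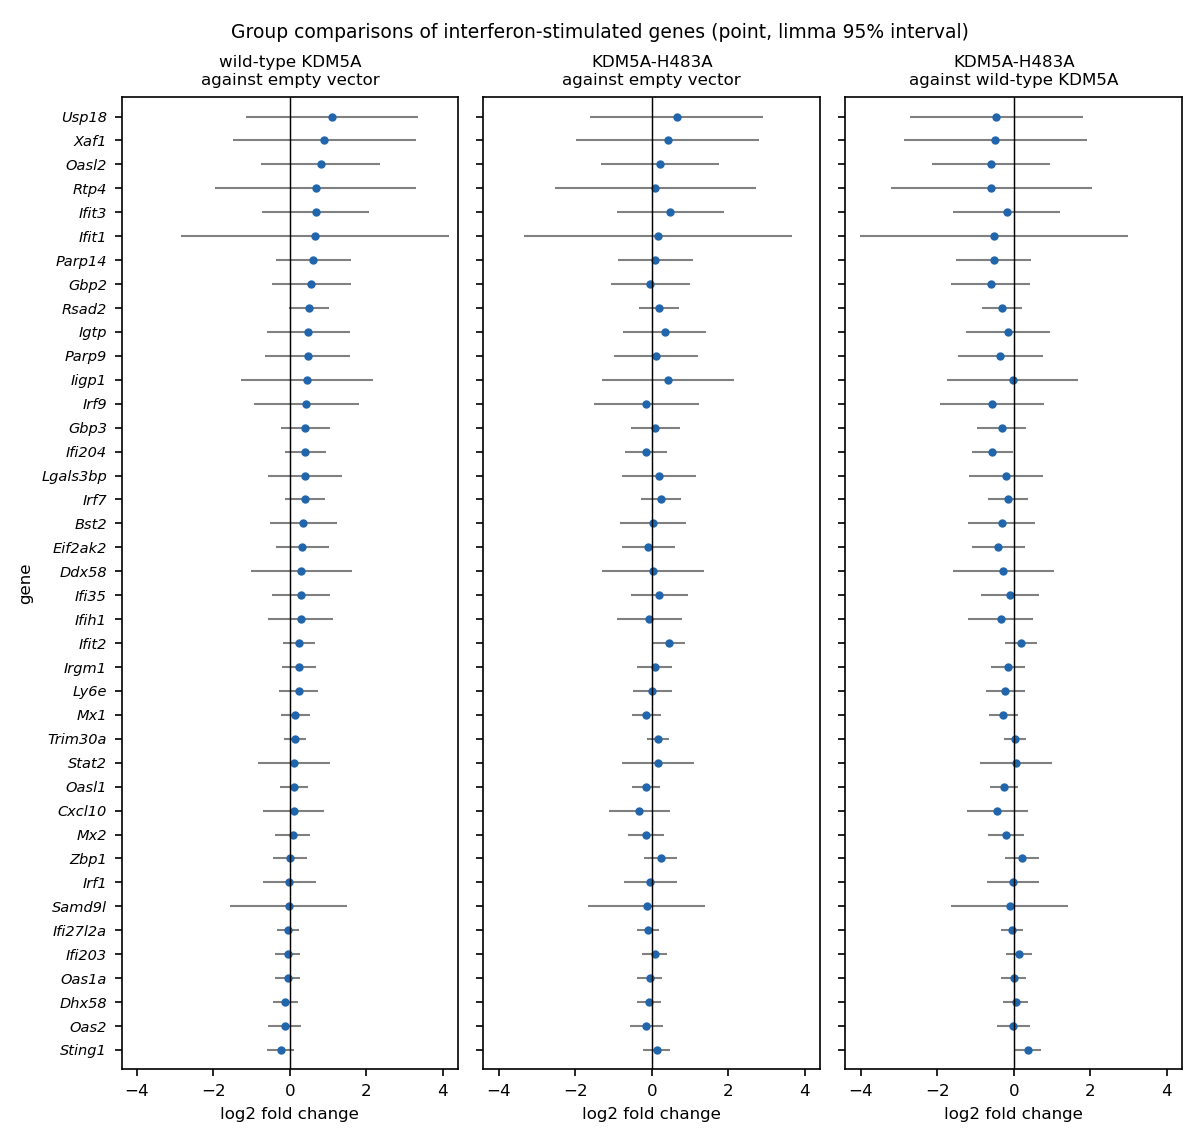
Log2 fold change (points) with its 95% confidence interval from limma (lines) for the 40 genes (rows, in the order of the first panel) in the 3 comparisons. The intervals are widest for Ifit1, with bounds 3.51 from the estimate, and exclude 0 only for Ifit2 in the second panel and for Ifi204 and Sting1 in the third.

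The genes upstream of the response varied less. Of 25 ligands, receptors, kinases and regulators, 22 were measured, and limma called 0 of them in each group comparison, as it did over all genes (0.0%). In each comparison 1 had an unadjusted p under 0.05, against 2.52%, 1.65% and 3.81% of all genes in the order above. In the comparison of replicate 1 with replicate 2 over the 4 KDM5A arrays, limma called 3 of the 22, all higher in replicate 1, against 5.27% of all genes called and 3.34% called higher. Ifnar1, a chain of the type I interferon receptor, read 8.61 and 8.97, then 9.24 and 8.35, then 8.90 and 7.48. Its second KDM5A-H483A array was the lowest. Jak1, the receptor kinase gene, stood at 10.4 and 10.6, 10.8 and 10.3, and 10.8 and 9.94, and Pias1, a SUMO ligase gene, had first arrays 0.51 and 0.81 above the second in the KDM5A groups. The other 3 genes of this list were not analysed here.

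The interferon genes themselves read low and varied little. Ifnb1 lay between 4.31 and 4.68, Ifna2 between 4.83 and 5.17, and Ifna4 between 3.09 and 3.50. All of these values were below the level of the median gene, 5.52. Such weak signal cannot show that these genes were steady. The other receptor chain genes Ifnar2, Ifngr1 and Ifngr2 differed by 0.04 to 0.21 between first and second wild-type KDM5A array and by -0.10 to 0.22 between the KDM5A-H483A arrays. The kinase genes Jak2 and Tyk2 spanned 0.11 and 0.40 over the 6 arrays. Irf3, which switches on interferon genes, read 5.59 and 5.77, then 5.28 and 5.10, then 5.66 and 5.83, so that the wild-type KDM5A arrays were the lowest. It had an unadjusted limma p of 0.0127 for wild-type KDM5A against empty vector and 0.00709 between the KDM5A forms, with adjusted p of 1 and 0.928. For KDM5A-H483A against empty vector the gene was Tyk2, with a log2 fold change of -0.32 (limma adjusted p = 0.999).

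Among the adaptors and sensors of this list, Mavs, Cgas, Ticam1 and the kinase gene Tbk1 had log2 fold changes of -0.15 to 0.17 for wild-type KDM5A and -0.29 to 0.08 for KDM5A-H483A against empty vector. Ikbke, a kinase related to TBK1, was at -0.05 and 0.02, and the RNA sensor gene Tlr3 at 0.27 and 0.27. The feedback inhibitors Socs1 (0.20 and 0.22) and Socs3 (0.06 and 0.17) stood above 0 against empty vector for both forms, in the same order, with the RNA editor gene Adar at 0.22 and -0.06, and the nucleotide hydrolase gene Samhd1 at -0.11 and 0.13. None of these passed the threshold.

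Markers of other cell types were set beside these differences. Of 11 leukocyte markers, 10 were measured. Their summed log2 level was 48.9 and 49.3, then 49.0 and 48.4, then 50.1 and 49.9 in the same order of groups, and 0 of the 10 differed by 1 or more between replicate arrays of any group. The summed levels of the 4 dendritic markers lay between 19.7 and 20.2. Those of the 6 endothelial markers lay between 24.2 and 24.9, and those of the 5 epithelial markers between 20.4 and 20.7. Of 10 fibroblast markers, limma called 7 higher in replicate 1 over the 4 KDM5A arrays, against 3.34% of all genes. The first array was at least 1 above the second for 5 of them with wild-type KDM5A (1.47% of all genes) and for 4 with KDM5A-H483A (1.46%). Their summed level was 102 and 98.5, 104 and 92.8, and 102 and 92.6 in the order of groups above. Dcn, the gene of the matrix proteoglycan decorin, stood at 7.80 and 6.77, 8.26 and 5.97, and 8.07 and 5.67, and Lum, that of lumican, at 5.85 and 5.01, 6.09 and 3.80, and 5.52 and 3.92. Thy1, Vim and Fn1 were not called, with differences of 0.064, 0.056 and 0.26 for wild-type KDM5A and -0.52, -0.38 and 0.20 for KDM5A-H483A. The part of the fibroblast markers in the differences of the interferon-stimulated genes was not tested.

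**Figure D4:**
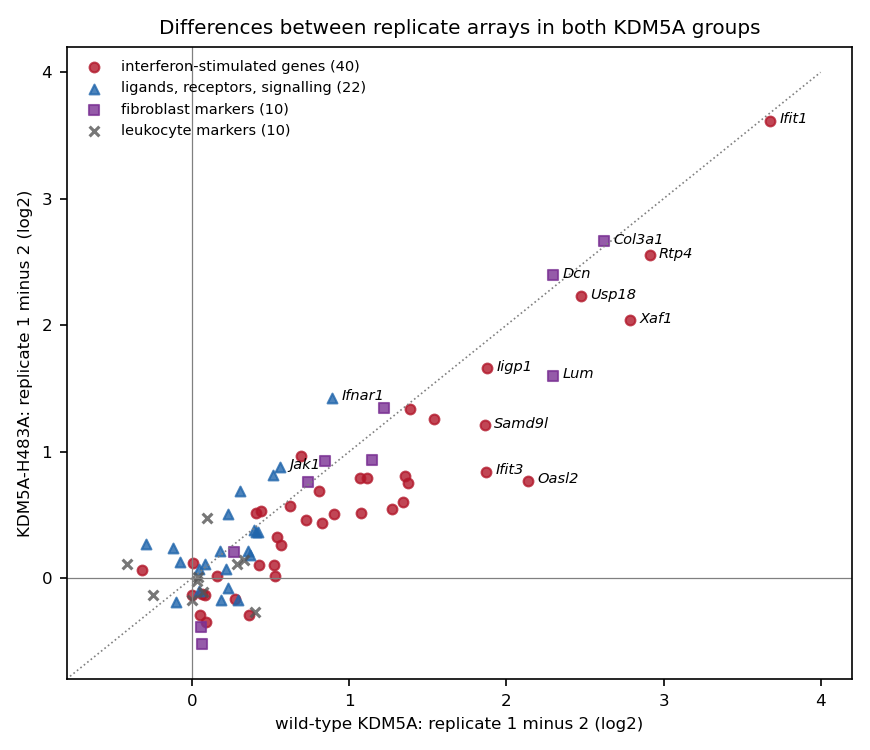
Difference between replicate 1 and replicate 2 (log2) with wild-type KDM5A (horizontal axis) and KDM5A-H483A (vertical axis) for the 40 interferon-stimulated genes, 22 upstream genes, 10 fibroblast markers and 10 leukocyte markers. The dotted line marks equal differences. Most of the red points lie below it, 35 of the 40, Ifit1 lies at 3.68 and 3.62, and the leukocyte markers lie near 0.

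A second look within the array came from the 20 other probe sets that 15 of the 40 genes have. In 16 of these 20, the first array was above the second, by any amount, in both KDM5A groups, as in 30.7% of all single-gene probe sets. In 1 of the 20 the difference was at least 1 in both. The share of all single-gene probe sets this far apart was not computed, so that count cannot be read as low or high. It was a second probe set of Ddx58, with differences of 1.57 and 1.54, close to the 1.39 and 1.34 of the brightest one. Another Ddx58 probe set had 0.21 and 0.55, and a second Stat2 probe set had 1.03 and 0.69 against 1.07 and 0.79. A second Rsad2 probe set had larger differences than the brightest, 1.12 and 0.76 against 0.40 and 0.52, and another had -0.046 and 0.33. For Xaf1 the second probe set had 1.48 and 0.24 against 2.79 and 2.04. For Rtp4 it stayed between 2.85 and 3.02 in every array, and the dimmer Iigp1 probe set had 0.39 and 0.27 against 1.88 and 1.66. The second Sting1 probe set had 0.30 and -0.61 against -0.32 and 0.065, and an Ifi35 probe set had 0.60 and -0.11 against 0.91 and 0.50. Probe sets of 1 gene thus differed in size and, for several genes, in direction. The mean of the representative probe set lay below the median gene for 16 of the 40 genes, where RMA compresses differences.

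The stretches in front of the genes were searched for the element that the complex with IRF9 binds. RefSeq's table of promoters (GRCm38.p6) held 29 of the 43 genes. The core of the interferon-stimulated response element was searched as GAAA, any 2 bases and GAAA again, on both strands, in the 250 bases before each start. It occurred in 15 of these 29 genes, or 51.7%, against 3.46% of all genes in the table and 3.13% of the genes on the array that the table holds. The gamma-activated site, searched as TTCNNNGAA, which is its own reverse complement, occurred in 6 of the 29 (20.7%, against 8.13% of all genes in the table), and both motifs can overlap. The stretches below are those of the genes with a core match and a difference of at least 1 between the wild-type KDM5A arrays, with Oas1a added as a gene with the same match and a difference of 0.16. Each is given in the direction of its gene, with the matched bases in capitals. The capitals read TTTC where the match is on the opposite strand.
Ifit1: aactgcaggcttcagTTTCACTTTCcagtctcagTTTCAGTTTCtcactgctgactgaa
Ifit3: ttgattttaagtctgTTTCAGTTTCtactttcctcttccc
Igtp: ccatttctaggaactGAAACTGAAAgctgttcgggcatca
Gbp2: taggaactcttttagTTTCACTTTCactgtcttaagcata
Bst2: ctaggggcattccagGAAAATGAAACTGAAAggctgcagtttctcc
Stat2: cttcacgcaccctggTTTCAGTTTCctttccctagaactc
Oas1a: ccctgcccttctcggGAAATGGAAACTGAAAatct

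The Ifit1 stretch (chr19:34640770-34640828, + strand) holds 2 matches and runs from -119 to -61 relative to the start. The Ifit3 stretch lies at chr19:34583392-34583431 (+ strand), with a further match upstream that is not shown, Igtp at chr11:58199507-58199546 (+ strand) and Gbp2 at chr3:142620589-142620628 (+ strand). Bst2, at chr8:71537572-71537617 (- strand), has 2 overlapping matches, as does Oas1a at chr5:120907526-120907560 (- strand). The Stat2 stretch, at chr10:128270261-128270300 (+ strand), lies farthest from its start.

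Genes with a match did not have the larger median difference between replicate arrays. Among the 26 measured genes in the table, 13 had a core match and 13 had none. The median difference with wild-type KDM5A was 0.80 with a match (range 0.00 to 3.68) and 0.91 without (range 0.08 to 2.79). With KDM5A-H483A the medians were 0.52 and 0.77. Irf9, Xaf1, Samd9l, Oasl2 and Ddx58 had no match in this window, which says only that these letters are not there.

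**Figure D5:**
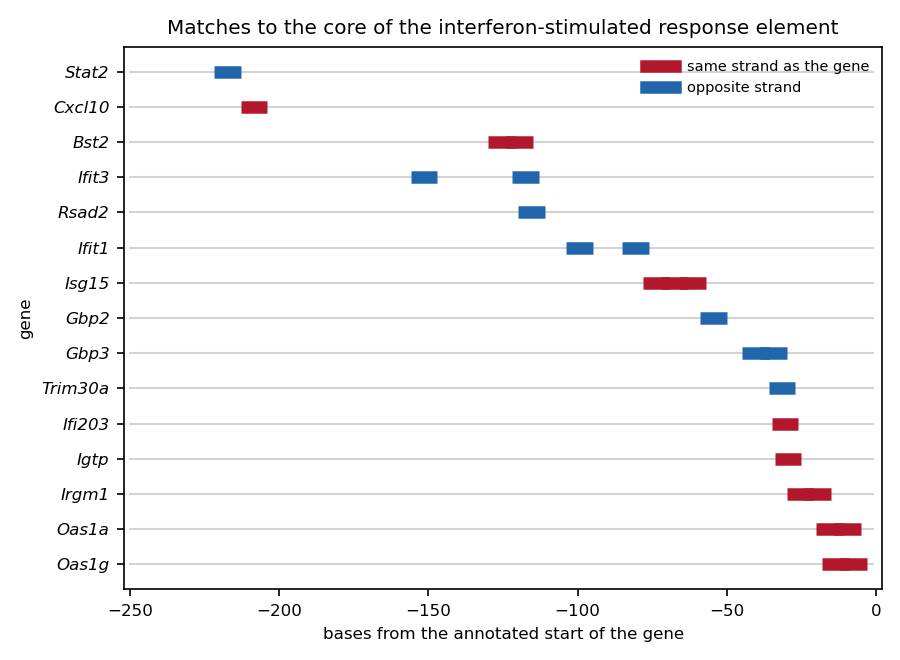
Positions of the core of the response element (bars) within the 250 bases before the annotated start (horizontal axis, in bases from the start) of the 15 genes that hold it, including Isg15 and Oas1g, which were not measured. Bars are red on the strand of the gene and blue on the opposite strand, and the matches lie nearest the start in Oas1a and Oas1g and farthest in Stat2 and Cxcl10.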

How the data were processed

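Expression on 6 arrays was deposited by the authors as log2 values in 1 table. The submitters' processing notes name RMA, without a version. The deposited log2 values had array medians between 4.55 and 4.60 and were used as they are. The small number of arrays limits the precision. Of 45101 probe sets, the platform annotation paired 34958 with 1 gene, 932 with several and 9211 with none; symbols of 34754 were updated through Entrez IDs.

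Differences were tested with limma 3.58.1 in R 4.3.3: a mean for each group, fitted to the 6 arrays by lmFit and moderated by eBayes (3 residual and 3.42 prior degrees of freedom), two-sided, adjusted over 18194 genes by Benjamini-Hochberg at 0.05. Group values are not blocked on the replicate number. The procedure was tested on simulated data.

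The members and lists were chosen with earlier results of these data known. The naming rule gives array values for the 12 genes with the largest range, the 3 smallest p in each direction of each comparison and the transcription factors; all others are given by range or difference. Printed stretches stop before the start of the gene. Alternatives covered the probe set per gene, dim genes, normalization, the variance prior, array weights, the samples fitted, the replicate block, each array left out and the motif.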

Additional observations from a re-analysis of the deposited data

How the results depend on the processing

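Limma called 0 of the 40 genes in all 45 combinations of a group comparison with an alternative, where the smallest adjusted p was 0.235. The medians over the 40 lay between 0.23 and 0.31 for wild-type KDM5A against empty vector, 0.06 and 0.09 for KDM5A-H483A against empty vector, and -0.24 and -0.17 between the KDM5A forms, leaving aside the fits without an array. Without 1 array they lay between -0.14 and 0.65, -0.18 and 0.32, and -0.68 and 0.20. What arrays of the same replicate number share is not given in the labels. Differences between the 2 arrays correlated over genes at 0.31 for empty vector with wild-type KDM5A and 0.016 for empty vector with KDM5A-H483A. For the KDM5A groups this correlation was 0.53. With the replicate block, limma called 0 of the 40 in each comparison, and 4, 1 and 3 had an unadjusted p under 0.05. Of all 18194 genes, 713, 502 and 922 had an unadjusted p under 0.05 with this block, in the same order. Leaving out 1 array turned the direction of up to 23, 17 and 25 of the 40 genes in the 3 comparisons. The arrays left out were the first wild-type KDM5A, the first KDM5A-H483A and the first wild-type KDM5A array. These counts were chosen after seeing the data. The share over all genes was not computed, so they cannot be read as particular to this set. Among the genes named by p, 4 turned. Dhx58 against empty vector was 0.033 with wild-type KDM5A by the mean of its probe sets, and Oas2 ranged from -0.34 to 0.081 without 1 array, the highest without the second wild-type KDM5A array. For KDM5A-H483A, Oasl1 ranged from -0.32 to 0.025, the highest without the first empty vector array, and Cxcl10 from -0.67 to 0.018, the highest without the second KDM5A-H483A array. The 22 calls of replicate 1 against replicate 2 were 12 with dim genes left out, where the 16 genes below the median level were not tested. The share of all bright genes called there is not given, so 12 cannot be read as a weaker result than 22. Over all 6 arrays there were 0 calls, with 0.0% of all genes called. The longer element, GAAA, any 2 bases and GAAACT, occurred in 10 of 29 genes (34.5%), against 0.255% of all genes in the table. By the mean of all probe sets, the differences for Rtp4 were 1.42 and 1.30, and those for Xaf1 2.14 and 1.14. Weak signal limits the 16 genes below the median level.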
